A study of Dichomitus squalens with 6 samples.

Results

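A set of 161 gene models of Dichomitus squalens had its highest RNA level on L-rhamnose and lower levels of similar size on cellobiose and xylose. The set came out of 15295 models in the gene catalog of the strain, and 9894 of these met the structural conditions of the choice. Members were chosen by their measured values: R, C and X are the means of FPKM + 1 over the 2 L-rhamnose, the 2 cellobiose and the 2 xylose libraries. FPKM is the number of reads on a gene, scaled to the length of its coding sequence and to the size of the library. A member had R of at least 10, R at least 3 times both C and X, C and X within 2-fold of each other, and both L-rhamnose libraries above the 4 others. The structural conditions were at least 2 exons, a length above 400 bases, a whole expected count in all 6 libraries, and a position outside scaffolds 52, 68 and 77. The levels of the members on the 3 sugars are therefore a description and carry no test.

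The 3 groups had L-rhamnose, cellobiose or xylose as the added sugar, each at 25 mM and each with 2 libraries. All libraries came from mycelium of the monokaryotic wild-type strain CBS 464.89, a single isolate, kept for 5 days at 28 °C on plates with 1.5% agar and a low-nitrogen medium that also held asparagine and succinate. Plates that lacked these sugars were not analysed here, so high on L-rhamnose means high relative to cellobiose and xylose. Nothing in the labels tells if replicates were separate cultures.

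Dichomitus squalens is a white-rot fungus, able to break down lignin as well as the polysaccharides of wood. L-Rhamnose is a deoxy sugar that alternates with galacturonic acid in the backbone of rhamnogalacturonan I, a part of pectin. In ascomycete fungi such as Aspergillus niger and Scheffersomyces stipitis, L-rhamnose is degraded without phosphorylated intermediates. The sugar is oxidised and hydrolysed to L-rhamnonate, dehydrated, and cleaved to pyruvate and L-lactaldehyde. Cellobiose, the glucose disaccharide of cellulose, and xylose, the main sugar of xylan, enter metabolism by other routes. The files give the models positions and numbers but no product names, so none of the members could be placed in these pathways, and they are described by position, structure and level.

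The set was small beside the number of models with a measurable level. Of the 9894 models that met the structural conditions, 7712 had R of at least 10. Among these, 267 had R at least 3 times C, 437 had R at least 3 times X, and 176 had both. The 2-fold condition between the other sugars removed 15 of the 176, of which 10 were higher on cellobiose and 5 higher on xylose. All 161 remaining models also had both L-rhamnose libraries above the other 4. The same conditions with cellobiose in the place of L-rhamnose gave 47 models, and with xylose 43.

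A further 96 models had the measured pattern but not the structure asked for. Of these, 18 had a single exon, 45 were 400 bases or shorter, 33 had an expected count that was not whole, and 17 lay on the 3 scaffolds left out. Among the 17, 12 were on scaffold 52, 4 on scaffold 68 and 1 on scaffold 77. A model can fail more than 1 condition, and 17 of the 96 did.

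Members took up about 4% of the L-rhamnose libraries and under 1% of the others. They held 4.17% and 3.74% of the expected counts in the L-rhamnose libraries, against 0.715% and 0.520% in the cellobiose libraries and 0.501% and 0.819% in the xylose libraries. The cellobiose and xylose libraries overlapped in this share, while both L-rhamnose libraries stood above them. The choice of members had largely fixed this pattern. In bulk RNA, more cells that express a gene and more RNA per cell cannot be told apart. Library totals ranged from 7306517 expected counts in L-rhamnose replicate 1 to 8126006 in xylose replicate 1. No member was at 0 in any library. The lowest count of a member on L-rhamnose was 27 reads, and 11 members had fewer than 10 reads in at least 1 library, so their ratios rest on few reads. In the fit described below, standard errors were also large in some members with many reads in every library.

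Levels within the set spanned almost 3 orders of magnitude on L-rhamnose. R had a median of 76.9, with quartiles of 33.5 and 185 and a range of 10.2 to 7576. The median of C was 13.7 and the median of X was 13.2. R reached 50 in 101 members, 100 in 62, 500 in 16 and 1000 in 4. The ratio of R to C had a median of 4.71 and the ratio of R to X a median of 4.87. The smaller of both ratios had a median of 4.12, with quartiles of 3.46 and 5.61. It reached 5 in 56 members, 10 in 16 and 20 in 2. The smaller ratio was the one against xylose in 75 members and the one against cellobiose in 86.

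**Figure D1:**
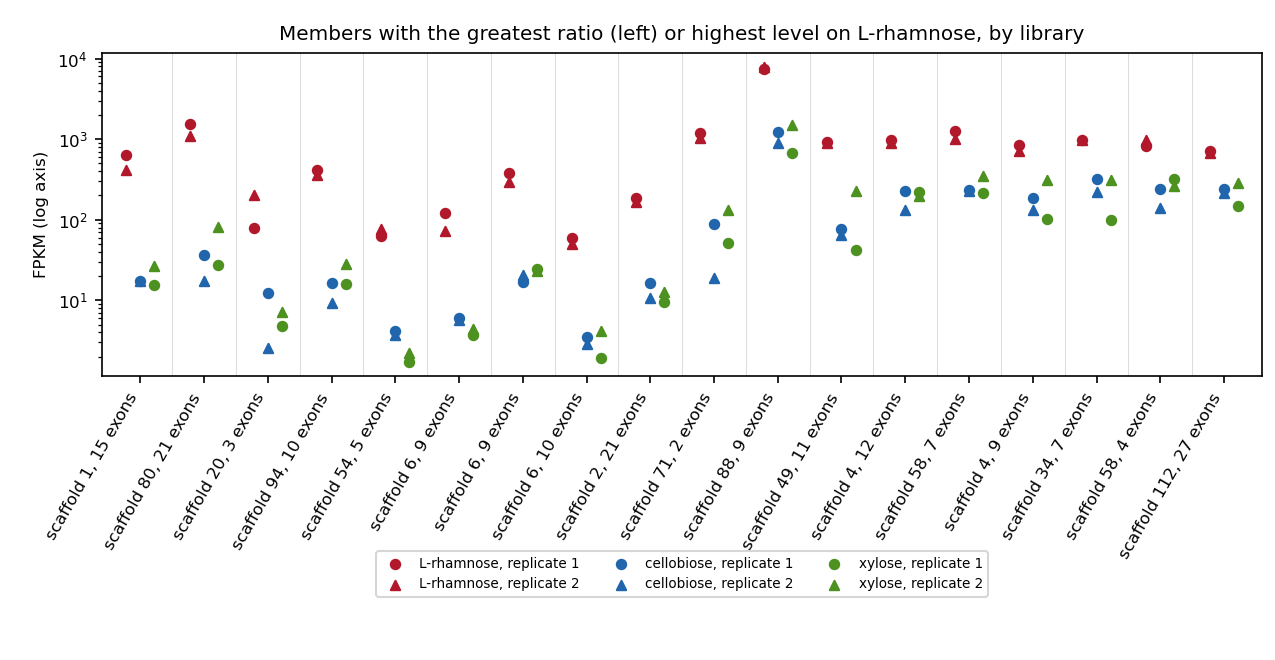
FPKM on a log axis in each of the 6 libraries for 18 members, the 10 with the greatest smaller ratio on the left in falling order and then the remaining ones of the 10 with the highest R, with circles for replicate 1 and triangles for replicate 2. Both L-rhamnose points lie above the 4 others in every member shown, as the rule required. The model on scaffold 88 is the highest, at 7412 and 7738 FPKM on L-rhamnose.

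The member with the greatest smaller ratio was gene_860, a 15-exon model on scaffold 1, spanning 1726579 to 1728862 on the plus strand, with a coding length of 1338 bases. It had 643 and 411 FPKM on L-rhamnose, against 17.4 and 17.3 FPKM on cellobiose and 15.3 and 26.4 FPKM on xylose. The lower L-rhamnose library was thus more than 15 times any of the other 4. The mean was 527 ± 164 FPKM on L-rhamnose, 17.4 ± 0.0990 FPKM on cellobiose and 20.9 ± 7.85 FPKM on xylose (SD, n = 2 each). R was 28.8 times C and 24.2 times X.

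The second greatest belonged to a 21-exon model on scaffold 80, spanning 86874 to 91338 on the plus strand, with a coding length of 3021 bases. It had 1527 and 1085 FPKM on L-rhamnose, against 36.9 and 17.6 FPKM on cellobiose and 27.4 and 81.0 FPKM on xylose. R was 46.3 times C, the highest such ratio in the set, and 23.7 times X. The 2 replicates differed by more than 2-fold on cellobiose and by nearly 3-fold on xylose, so the size of these ratios depends on which libraries are averaged.

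The rest of the 10 members with the greatest smaller ratio differed in level. A 10-exon model at 48985 to 50584 on scaffold 94 had 413 and 355 FPKM on L-rhamnose, against 16.2 and 9.16 FPKM on cellobiose and 15.8 and 28.4 FPKM on xylose. A 9-exon model at 488018 to 489773 on scaffold 6 had 381 and 296 FPKM on L-rhamnose, against 17.1 and 20.6 FPKM on cellobiose and 24.1 and 23.2 FPKM on xylose. In both models the 4 libraries of the other sugars lay below 30 FPKM.

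Other models of these 10 had low levels on the other sugars. A 5-exon model at 72809 to 75270 on scaffold 54 had 62.8 and 76.9 FPKM on L-rhamnose, against 4.19 and 3.72 FPKM on cellobiose and 1.74 and 2.21 FPKM on xylose. A 10-exon model at 315569 to 318389 on scaffold 6 had 59.3 and 49.7 FPKM on L-rhamnose, against 3.49 and 2.83 FPKM on cellobiose and 1.92 and 4.21 FPKM on xylose. A 9-exon model at 364110 to 366055 on the same scaffold had 121 and 72.5 FPKM on L-rhamnose, against 6.01 and 5.74 FPKM on cellobiose and 3.70 and 4.37 FPKM on xylose. Scaffold 6 thus held 3 of these 10 members. A 21-exon model at 721363 to 725624 on scaffold 2 had 185 and 166 FPKM on L-rhamnose, against 16.4 and 10.8 FPKM on cellobiose and 9.49 and 12.7 FPKM on xylose.

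In 2 more of the 10, as in the model on scaffold 80, replicates on 2 of the sugars lay over 2-fold apart. A 3-exon model at 222810 to 223394 on scaffold 20 had 79.9 and 203 FPKM on L-rhamnose, against 12.4 and 2.57 FPKM on cellobiose and 4.74 and 7.08 FPKM on xylose. A 2-exon model at 36420 to 37686 on scaffold 71 had 1190.3 and 1025 FPKM on L-rhamnose, against 89.2 and 19.0 FPKM on cellobiose and 51.0 and 132 FPKM on xylose. In the model on scaffold 71, cellobiose replicate 1 exceeded replicate 2 by over 4-fold while the L-rhamnose libraries lay close together.

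**Figure D2:**
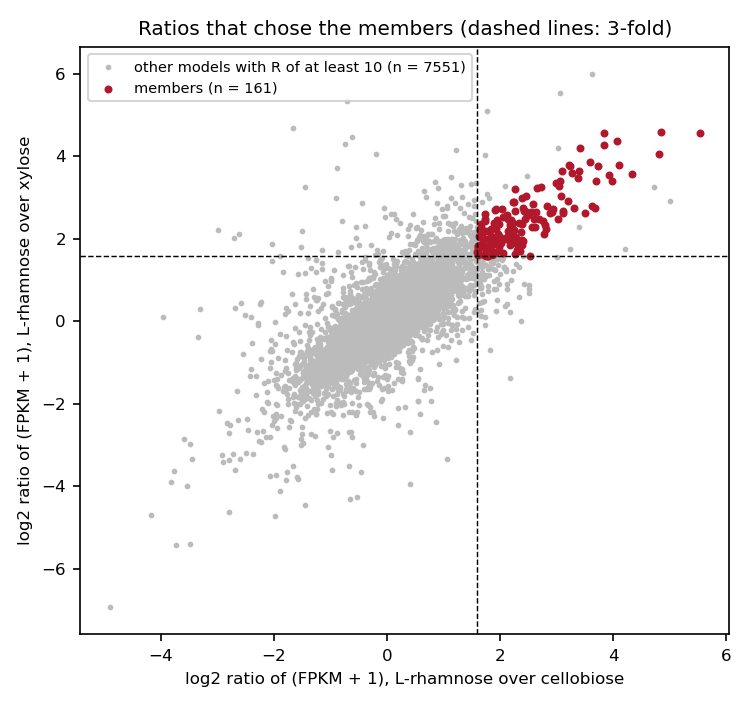
Log2 ratio of L-rhamnose over cellobiose (horizontal) against log2 ratio of L-rhamnose over xylose (vertical), both of mean FPKM + 1, for the models that met the structural conditions with R of at least 10, with the 161 members in red and dashed lines at 3-fold. The members fill the upper right corner with no gap at the lines.

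The conditions cut through a continuous distribution rather than a separate cloud, as the plot of both ratios shows. The 3 members just inside the ratio of 3 had smaller ratios of 3.0066, 3.0085 and 3.016 and lay at 937604 to 940514 on scaffold 1, 152406 to 153402 on scaffold 47 and 65219 to 70327 on scaffold 112. The 3 models just outside had 2.9985, 2.9958 and 2.9909 and lay at 1623428 to 1625506 on scaffold 1, 44699 to 45508 on scaffold 98 and 93186 to 95049 on scaffold 43. The lowest R inside was 10.2, in a model on scaffold 90, and the nearest outside was 8.82, on scaffold 7. The largest fold between C and X inside was 1.95, in the 21-exon model on scaffold 80, and the nearest outside was 2.06, in a model at 60334 to 62215 on scaffold 162.

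The most abundant member was gene_12832, a 9-exon model on scaffold 88, spanning 68926 to 70423 on the minus strand, with a coding length of 768 bases. It had 7412 and 7738 FPKM on L-rhamnose, against 1234 and 900.1 FPKM on cellobiose and 673 and 1504 FPKM on xylose. The mean was 7575 ± 231 FPKM on L-rhamnose, 1067 ± 236 FPKM on cellobiose and 1088 ± 588 FPKM on xylose (SD, n = 2 each). R was 7.09 times C and 6.95 times X. This model held 20.9% and 23.5% of all FPKM of the members on L-rhamnose, against 19.2% and 19.5% on cellobiose and 14.7% and 21.0% on xylose. It was also the most abundant member in each of the 4 libraries on the other sugars.

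Most of the other abundant members also had levels of about 100 FPKM or more on cellobiose and xylose. A 7-exon model at 27767 to 29795 on scaffold 58 had 1272 and 999 FPKM on L-rhamnose, against 235 and 229 FPKM on cellobiose and 214 and 346 FPKM on xylose. A 7-exon model at 198319 to 199834 on scaffold 34 had 967 and 968 FPKM on L-rhamnose, against 319.6 and 224 FPKM on cellobiose and 97.9 and 311 FPKM on xylose. A 12-exon model at 647006 to 648758 on scaffold 4 had 969 and 906 FPKM on L-rhamnose, against 229 and 131 FPKM on cellobiose and 221 and 197 FPKM on xylose. In the models on scaffolds 34 and 4 the fold between replicates was smaller on L-rhamnose than on cellobiose or on xylose. On scaffold 4 it was only slightly smaller than on xylose. An 11-exon model at 112709 to 115503 on scaffold 49 had 918 and 905 FPKM on L-rhamnose, against 75.8 and 65.3 FPKM on cellobiose and 42.2 and 229.5 FPKM on xylose. Its xylose libraries lay over 5-fold apart, and xylose replicate 2 was the only one of the 4 other libraries above 100 FPKM.

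In the L-rhamnose libraries themselves, a few members were unlike in both replicates. The 3 members with the largest gap were the model on scaffold 20 given above, a 3-exon model at 434071 to 435340 on scaffold 1 and an 11-exon model at 1176792 to 1178814 on scaffold 2. The model on scaffold 1 had 49.1 and 120.45 FPKM on L-rhamnose, against 19.1 and 10.6 FPKM on cellobiose and 13.1 and 15.8 FPKM on xylose. The model on scaffold 2 had 8.53 and 18.7 FPKM on L-rhamnose, against 1.98 and 3.48 FPKM on cellobiose and 2.77 and 3.55 FPKM on xylose. All 3 were higher in L-rhamnose replicate 2, whereas 109 of the 161 members were higher in replicate 1.

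The rule works on means of 2 libraries and takes no account of their spread, so the members were also followed in a fit of all tested genes. Genes were tested with edgeR's quasi-likelihood test and called at a Benjamini-Hochberg adjusted p under 0.05. All 161 members had enough reads to be tested. Of these, 160 were called higher on L-rhamnose than on cellobiose, where 11.0% of all 12667 tested genes were. Likewise 160 were called higher on L-rhamnose than on xylose, where 15.9% of all tested genes were, and the same 160 were called in both, where 7.88% of all tested genes were. Because the rule used these comparisons, the counts describe the members and are no evidence about them. Both comparisons also share the L-rhamnose libraries. With 1 library left out, 1 sugar has a single library. Fewer members were called in both without L-rhamnose replicate 1, L-rhamnose replicate 2 or cellobiose replicate 2. The share of non-members called in both fell in the same fits.

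The median fitted log2 fold change of the members was 2.33 on L-rhamnose over cellobiose and 2.29 on L-rhamnose over xylose, beside medians of -0.0026 and 0.013 over all tested genes. The member that was not called was the 4-exon model of scaffold 90 that spans 101586 to 102441 on the minus strand, the one with the lowest R. It had 12.5 and 5.91 FPKM on L-rhamnose, against 3.39 and 0.86 FPKM on cellobiose and 0.42 and 3.41 FPKM on xylose. Both L-rhamnose libraries lay above the 4 others, as the rule required. The replicates differed by about 2-fold on L-rhamnose and by more on cellobiose and on xylose.

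No member was called different between xylose and cellobiose. In the comparison of xylose with cellobiose, edgeR called 0 of the 161 members, beside 4.21% of all tested genes, of which 1.66% were higher and 2.55% lower on xylose. The rule asked for C and X within 2-fold, so a low count was fixed in part by the choice. At an unadjusted p under 0.05, 18 members passed, 11 higher and 7 lower on xylose. DESeq2 called 3, all higher on xylose. The shares of all tested genes that passed these limits are not given here, so the counts cannot set the members apart from other genes. The median fitted log2 fold change of the members was 0.08 on xylose over cellobiose, with quartiles of -0.24 and 0.38. Without xylose replicate 1 or xylose replicate 2, edgeR called a few members, in fits with a single xylose library.

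Whether a member was higher on xylose than on cellobiose depended on the libraries compared. Xylose replicate 2 was above cellobiose replicate 2 in 122 of the 161 members, and xylose replicate 1 was above cellobiose replicate 1 in 31. Xylose replicate 2 was above cellobiose replicate 1 in 78 members, and xylose replicate 1 above cellobiose replicate 2 in 62. The count thus ran from 31 to 122 depending on which library stood for each sugar.

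The replicates of the sugars other than L-rhamnose differed in the same direction across most members, a readout that the rule did not use as such. Cellobiose replicate 1 exceeded replicate 2 in 127 of 161 members (78.9%), while the same held in 50.6% of the 7519 models that met the structural conditions and averaged at least 10 FPKM. Xylose replicate 2 exceeded replicate 1 in 132 members (82.0%), beside 53.3% of those 7519 models. Both held in 106 members (65.8%), beside 29.3%. Members that were high on L-rhamnose were thus also somewhat higher in 1 particular library of each other sugar. The median log2 difference, replicate 1 minus 2, was 0.38 on cellobiose and -0.38 on xylose, beside 0.0057 and -0.024 over the 7519 models. Regardless of direction, the median fold between replicates was 1.35 on cellobiose and 1.35 on xylose, beside 1.16 and 1.17.

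The L-rhamnose replicates differed less. L-Rhamnose replicate 1 exceeded replicate 2 in 109 members (67.7%), beside 57.4% of the 7519 models, and the median fold between them was 1.21, beside 1.16. FPKM values depend on how a library is scaled, so the counts were repeated with CPM and TMM factors, a choice made after seeing the data. There, cellobiose replicate 1 was the higher in 127 members (78.9%, beside 50.3%), xylose replicate 2 in 127 (78.9%, beside 48.8%), and L-rhamnose replicate 1 in 103 (64.0%, beside 51.1%).

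Models with the opposite preference showed the opposite direction. Of the 47 models that were high on cellobiose alone by the same conditions, 13 (27.7%) were higher in cellobiose replicate 1 and 19 (40.4%) in xylose replicate 2. Of the 43 models that were high on xylose alone, 11 (25.6%) were higher in cellobiose replicate 1 and 17 (39.5%) in xylose replicate 2. Values chosen for being high or low in a sugar are in part chosen for the noise of its libraries, so a further comparison classed models by a ratio that leaves out the sugar whose replicates are compared.

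Among the 7519 models, the share with xylose replicate 2 above replicate 1 was 34.5% where R was under 0.5 times C, 45.1% from 0.5 to 1 times, 64.0% from 1 to 2 times, 73.8% from 2 to 3 times, 78.3% from 3 to 5 times, and 89.5% of 76 models from 5 times upward. The share thus climbed at each step. The ratio that set the classes left out the xylose libraries, but the models were admitted by their mean FPKM over all 6 libraries. Members, chosen in part by C and X, were not taken out of the classes. Selection on the noise of the compared libraries is therefore reduced but not removed, here and in the series on cellobiose. The share with cellobiose replicate 1 above replicate 2, classed by R over X, was 22.9%, 39.7%, 62.3%, 71.2%, 82.4% and 74.2% in the same 6 classes. This second series climbed up to the class from 3 to 5 times and was lower in the last, of 124 models. The direction between replicates thus changed with the preference for L-rhamnose across these models, apart from the lower share in the last class on cellobiose. The classes are over models that share 6 libraries, so the shares are a description, and what set these libraries apart was not tested.

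**Figure D3:**
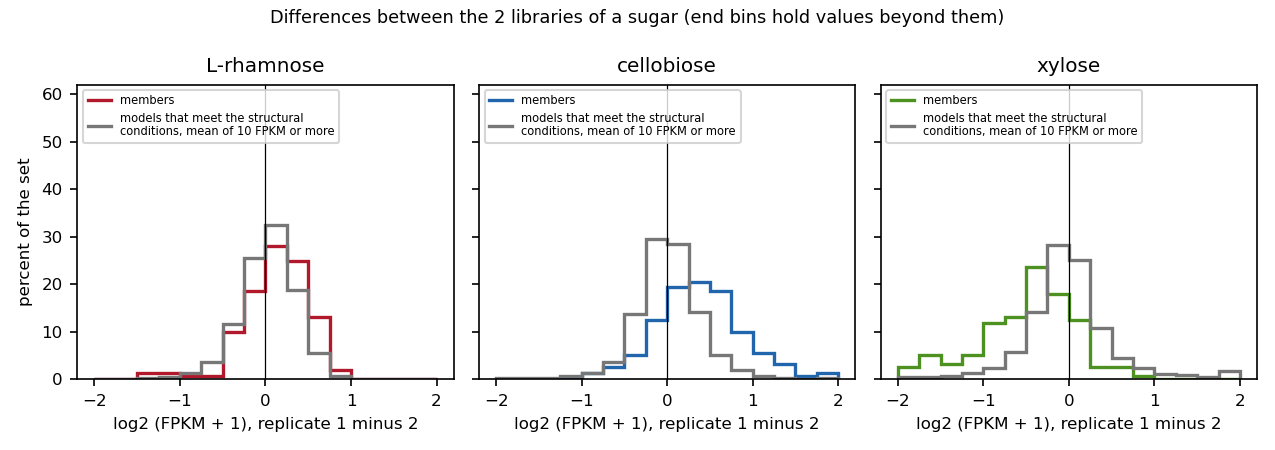
Difference between replicate 1 and replicate 2 of each sugar in log2(FPKM + 1) (horizontal), as the percent of the set in each bin (vertical), for the 161 members in colour and for the 7519 models that met the structural conditions with a mean of at least 10 FPKM in grey. The members are shifted to the right on cellobiose, where 127 were higher in replicate 1, and to the left on xylose, where 132 were higher in replicate 2.

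Members had somewhat shorter coding sequences and more exons per length than the models they were drawn from. These are counts and medians over models, and the differences were not tested. The median coding length was 1023 bases, beside 1242 bases over the 7712 models that met the structural conditions with R of at least 10 and 1176 bases over all 9894. The median number of exons was 7, beside 6 and 5. Set against length, members had a median of 6.87 exons per kilobase of coding sequence, beside 4.80 and 4.72. The rule required at least 2 exons and more than 400 bases, and the comparison models met the same limits. A dense exon structure was also seen in the 47 models high on cellobiose alone, at 6.39 exons per kilobase, and less in the 43 high on xylose alone, at 5.26. Their median coding lengths were 1050 and 1140 bases.

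Long coding sequences were scarce in the set. Those over 2000 bases were also few among the models high on cellobiose alone (3 of 47, 6.38%) or on xylose alone (3 of 43, 6.98%). Only 9 members (5.59%) had a coding length over 2000 bases, beside 19.9% of the 7712 models and 18.4% of the 9894. Models with 10 or more exons made up 40 members (24.8%), beside 20.4% and 19.1%. Models with 2 exons made up 16 members (9.94%), beside 9.80% and 12.5%. The typical intron was of the same size throughout, with a median of 59 bases in the members and in both comparison groups.

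A few members stood at the extremes of structure. The member with the most exons was the 27-exon model at 65219 to 70327 on scaffold 112, which had 706 and 669 FPKM on L-rhamnose, against 242 and 212 FPKM on cellobiose and 148 and 283 FPKM on xylose. The longest coding sequence, 3717 bases in 14 exons, was that of the model at 1056385 to 1060938 on scaffold 2. That model had 36.1 and 36.2 FPKM on L-rhamnose, against 7.44 and 6.78 FPKM on cellobiose and 4.35 and 7.28 FPKM on xylose. The longest intron, of 1464 bases, was in the 9-exon model at 24626 to 28581 on scaffold 177. It had 77.3 and 55.9 FPKM on L-rhamnose, against 20.3 and 20.2 FPKM on cellobiose and 15.6 and 19.1 FPKM on xylose. None of these 3 was among the 10 members with the greatest smaller ratio.

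**Figure D4:**
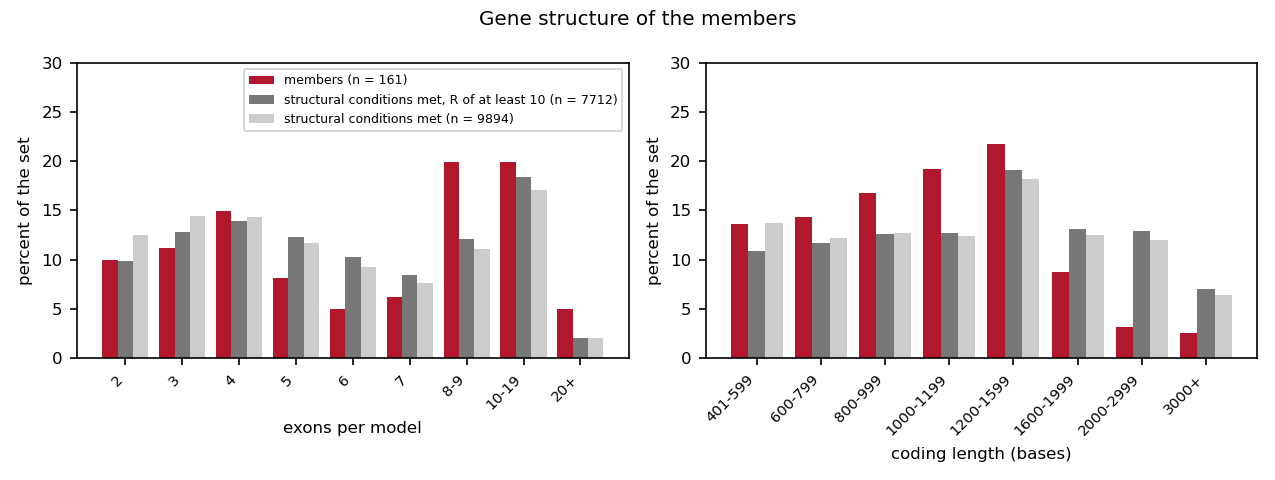
Percent of models by number of exons (left) and by coding length in bases (right) for the 161 members in red, the 7712 models that met the structural conditions with R of at least 10 in dark grey, and all 9894 such models in light grey. Members with 8 or 9 exons made up 19.9% of the set, and members over 2000 bases 5.59%.

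Fewer members had an annotated untranslated region. At least 1 such region was annotated in 59.0% of the members, beside 70.5% of the 7712 models and 68.9% of the 9894. The share was 61.7% in the 47 models high on cellobiose alone and 67.4% in the 43 high on xylose alone. The deposited lengths equal the coding length in every case, so reads in untranslated regions lie outside the length behind FPKM. By strand, 73 members lay on the plus and 88 on the minus strand.

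The members were spread over the genome. They lay on 89 of the 279 scaffolds that held a model meeting the structural conditions, with 1 member on 55 scaffolds, 2 on 17 and 3 or more on 17. Over all scaffolds 1.63% of such models were members. Scaffold 1 held 10 members among 811 models and scaffold 2 held 8 among 443. Among scaffolds with at least 3 members the share was, for example, 6 of 166 (3.61%) on scaffold 6, 4 of 52 (7.69%) on scaffold 58, 3 of 38 (7.89%) on scaffold 80 and 3 of 32 (9.38%) on scaffold 84. These scaffolds were singled out after their shares were seen, and a scaffold with a member and few models exceeds the overall share by its size alone.

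Some members were direct neighbours. There were 11 pairs of members next to each other with no other model between them, made of 22 members on 10 scaffolds. In 9 pairs both genes were on the same strand, in 2 they were divergent, and in none convergent. Of the 7193 adjacent pairs of models that met the structural conditions, 46.5% were on the same strand, 25.7% divergent and 27.7% convergent. The median distance was 376 bases, beside 393 over all such pairs. In 4 of the 11 pairs R differed by less than 2-fold between the neighbours, and in the other 7 it differed by more. That both genes of a pair were high on L-rhamnose was fixed by the choice of members.

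The widest gap in level was on scaffold 71. The 2-exon model at 36420 to 37686, given above, had 1190.3 and 1025 FPKM on L-rhamnose, and its neighbour at 37972 to 39127 had 48.1 and 41.8 FPKM. That neighbour had 12.7 and 8.03 FPKM on cellobiose and 9.37 and 13.2 FPKM on xylose. Both genes were on the minus strand with 2 exons, and their coding lengths were 888 and 885 bases. A similar gap was seen on scaffold 4, where the 9-exon model at 709635 to 711995 had 850.4 and 718 FPKM on L-rhamnose, against 186 and 131 FPKM on cellobiose and 101 and 309 FPKM on xylose. Its 8-exon neighbour at 712515 to 714309 had 41.8 and 34.2 FPKM on L-rhamnose, against 13.2 and 7.07 FPKM on cellobiose and 8.12 and 12.8 FPKM on xylose. The coding lengths of this pair were 1398 and 1380 bases. Counts of near-identical copies can be divided wrongly between them. The rule itself asked for whole expected counts, and no sequence was used here to measure how alike the neighbours are.

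On scaffold 6 both pairs included 1 of the 10 members with the greatest smaller ratio. The 9-exon model at 312932 to 314706 had 31.7 and 23.2 FPKM on L-rhamnose, against 11.1 and 4.88 FPKM on cellobiose and 5.24 and 8.48 FPKM on xylose, and lay 862 bases from the 10-exon model at 315569. The 19-exon model at 484560 to 487788 had 46.4 and 34.5 FPKM on L-rhamnose, against 12.0 and 7.74 FPKM on cellobiose and 7.67 and 7.80 FPKM on xylose, and lay 229 bases from the 9-exon model at 488018. In each pair 1 neighbour had a smaller ratio over 13 and the other a smaller ratio under 4.

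Around the pair on scaffold 1 lay a stretch from 881493 to 894581, where 5 consecutive models on the plus strand were all called higher on L-rhamnose in both comparisons. It held 3 members. The 7-exon model at 881493 had 28.8 and 24.2 FPKM on L-rhamnose, against 6.55 and 6.33 FPKM on cellobiose and 2.71 and 5.81 FPKM on xylose. The 7-exon model at 885367 had 143 and 105 FPKM on L-rhamnose, against 26.1 and 21.6 FPKM on cellobiose and 21.9 and 24.0 FPKM on xylose. The 17-exon model at 891829 had 92.7 and 89.6 FPKM on L-rhamnose, against 12.3 and 8.85 FPKM on cellobiose and 3.58 and 12.5 FPKM on xylose. Of the other two, 1 had R at 2.56 times C, and 1 had a coding length of 318 bases, with R at 5.74 times C and 5.44 times X. The span of this short model overlaps that of the 17-exon member on the same strand. The 3 models before this stretch were not called in both comparisons, and models after it were not examined. The pair on scaffold 4 likewise opened a run of 5 consecutive models, from 709635 to 721763 on both strands, all called in both. Some models of that run had R under 10, and models after it were not examined either.

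On scaffold 85 a divergent pair lay 220 bases apart. The 25-exon model at 47822 to 51386 had 97.7 and 79.5 FPKM on L-rhamnose, against 31.5 and 19.9 FPKM on cellobiose and 15.1 and 22.3 FPKM on xylose. The 9-exon model at 51607 to 53788 had 359.99 and 225 FPKM on L-rhamnose, against 50.3 and 24.7 FPKM on cellobiose and 29.3 and 57.6 FPKM on xylose. The other divergent pair, on scaffold 58 from 162612 to 166219, was also unequal in level. Its 4-exon model had 826 and 985 FPKM on L-rhamnose, against 237 and 138 FPKM on cellobiose and 322 and 260.4 FPKM on xylose. Its 8-exon partner had 130.2 and 94.5 FPKM on L-rhamnose, against 41.2 and 25.6 FPKM on cellobiose and 33.6 and 38.3 FPKM on xylose.

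The pairs on scaffolds 5, 84 and 283 and the first pair on scaffold 6 were the 4 pairs within 2-fold in R. On scaffold 5 the 11-exon model at 141335 to 143111 had 117 and 78.0 FPKM on L-rhamnose, against 19.1 and 20.6 FPKM on cellobiose and 15.0 and 9.51 FPKM on xylose. Its neighbour at 143554 to 145472 had 54.5 and 51.3 FPKM on L-rhamnose, against 9.61 and 5.16 FPKM on cellobiose and 6.63 and 10.8 FPKM on xylose. In the same-strand pair on scaffold 84, from 48440 to 50888, the first model had 102 and 93.5 FPKM on L-rhamnose, against 23.2 and 12.7 FPKM on cellobiose and 23.4 and 24.6 FPKM on xylose. The second had 119.8 and 142 FPKM on L-rhamnose, against 43.5 and 22.8 FPKM on cellobiose and 24.4 and 21.7 FPKM on xylose. In both pairs every L-rhamnose library lay above all 4 others, as the rule asked of each member.

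The pair on scaffold 283, from 5355 to 7849, had 0 bases between its models. Annotated untranslated regions of 378 and 377 bases meet at that border, which thus lies outside both coding sequences. The first had 27.1 and 22.6 FPKM on L-rhamnose, against 8.70 and 5.88 FPKM on cellobiose and 5.21 and 5.29 FPKM on xylose. The second had 29.1 and 35.9 FPKM on L-rhamnose, against 10.1 and 6.49 FPKM on cellobiose and 6.47 and 8.08 FPKM on xylose. On scaffold 45 the neighbours were again unequal in level. The model at 39452 to 42072 had 18.7 and 16.0 FPKM on L-rhamnose, against 3.52 and 4.19 FPKM on cellobiose and 1.48 and 2.03 FPKM on xylose. Its neighbour at 42449 to 44997 had 106 and 80.3 FPKM on L-rhamnose, against 11.7 and 11.1 FPKM on cellobiose and 12.2 and 15.5 FPKM on xylose.

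Among models next to a member that were not members themselves, a larger share was called higher on L-rhamnose than among all non-members, a difference that was not tested. Of 298 such models 268 were tested, and 32 (11.9%) were called higher on L-rhamnose in both comparisons, beside 6.7% of all 12506 tested models that were not members. The share at the fifth model away was 4.76% on the lower and 4.55% on the higher side by position. It was 13.4% and 10.4% at the next model on either side, and 14.3% at the third model on the higher side.

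The neighbours' counts depended on single libraries. Without L-rhamnose replicate 1, 1 of 270 neighbours (0.37%, beside 0.337% of non-members) was called in both, without L-rhamnose replicate 2, 2 of 274 (0.73%, beside 0.422%), and without cellobiose replicate 2, 4 of 273 (1.47%, beside 0.552%). Without cellobiose replicate 1 the share was 6.57% beside 2.52%, without xylose replicate 1 it was 8.42% beside 5.78%, and without xylose replicate 2 it was 14.2% beside 7.98%. The share next to members was above the background in each of these fits, but in the first 3 it rested on at most 4 models.

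**Figure D5:**
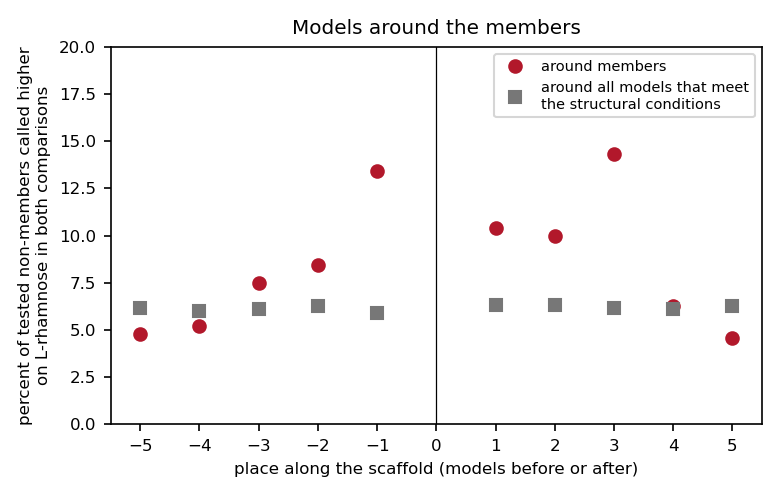
Percent of tested models that are not members and were called higher on L-rhamnose in both comparisons (vertical), by place from 5 models before to 5 after (horizontal), around members in red and around all models that met the structural conditions in grey. Around members the share was 13.4% and 10.4% at the next model, 14.3% at the third model after, and 4.76% and 4.55% at the fifth, while the grey points lie between 5.91% and 6.31%.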

How the data were processed

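RNA of Dichomitus squalens mycelium was sequenced in 6 libraries, 2 for each of 3 sugars. The authors deposited, per library and gene, an RSEM expected count, which is an estimated number of reads, and an FPKM value scaled to coding length and total reads. Per the submitters' processing notes, the tools were Bowtie2, HISAT and RSEM. Of their versions, the genome build and the use of strand, none is given in the sources used here. Genes missing from a library's table were taken as 0. Positions are those of the deposited gene catalog of the strain, and 0 identifiers matched a RefSeq gene table of another strain, so lists by product name could not be formed.

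The rule was applied to the deposited FPKM. Expected counts were rounded and fitted with edgeR 4.0.16 in R 4.3.3 (filterByExpr, TMM, quasi-likelihood, all 6 libraries, no covariate), with Benjamini-Hochberg adjustment over 12667 genes. The fit had 3 residual degrees of freedom and a common biological coefficient of variation of 0.218. The fit was tested on simulated data with known fold changes. With replicates not stated to be separate cultures, p-values reflect no more than the spread among the libraries, which could be technical. Alternatives used DESeq2 1.42.0, limma 3.58.1, other scalings, a replicate block and each library left out.

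The members and lists were chosen with earlier results of these data known. Named were the 10 members with the greatest smaller ratio, the 10 with the highest R, neighbouring members, those at the ratio limit, and the extremes of structure and of replicate difference. At most 2 are given by identifier. Both the scaling of the replicate counts and the alternatives for neighbours were chosen after seeing the data.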

Additional observations from a re-analysis of the deposited data

How the results depend on the processing

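The number of members followed the limits of the rule. It was 479 with a minimum ratio of 2, 87 with a ratio of 4 and 83 with 10 added to FPKM in place of 1. It lay between 140 and 201 with each library left out, and between 136 and 183 under the remaining 5 settings, TPM included (137). Of the members, edgeR called between 51 and 161 higher on L-rhamnose than on cellobiose with 1 library left out, between 114 and 161 higher than on xylose, and between 51 and 161 in both. The count against cellobiose was 51 without L-rhamnose replicate 1, 73 without L-rhamnose replicate 2 and 82 without cellobiose replicate 2. In these fits 1 sugar has a single library, whose spread is taken from the others. The share of non-members called in both comparisons also fell in the same fits, as given above beside the neighbours. The drop in these counts is therefore not particular to the members. For xylose against cellobiose the count was 0 to 7 with 1 library left out and 3 with DESeq2. Scaling by library size alone, RLE factors, no filter, limma and fits of 2 sugars left the counts of members called within 1.5 times the values reported. Over the 41 named members, 0 alternative fits reversed direction. The rule had largely fixed this by asking for both L-rhamnose libraries above the 4 others. Outside the fits that left 1 library out, the call held in 81 or 82 of 82 fits per setting. Most lost calls came from fits without 1 of the L-rhamnose libraries. Without TMM factors, by library size alone, the median over all tested genes shifted by 0.15 on L-rhamnose over xylose and by -0.12 on xylose over cellobiose. The members' median log2 fold change moved most to 2.52 against cellobiose without cellobiose replicate 1, and to 2.54 against xylose without xylose replicate 2.

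Libraries with the same replicate number did not deviate together, with correlations of -0.20, -0.12 and -0.087 between sugars. Whether the numbers pair the libraries was not tested. With the replicate number as a block, 157 members were called against cellobiose, 159 against xylose, 157 in both, and 0 between xylose and cellobiose. Among neighbours of members, 8.58% were called in both with the block, beside 3.80% of non-members. Depth limits the 11 members with fewer than 10 reads in a library.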
